A study of Mus musculus with 16 samples.

Results

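The glycine (Gly) and glutamate (Glu) transfer RNAs of the mouse prefrontal cortex were examined across 16 small RNA libraries. They comprise every tRNA entry whose name carries Gly or Glu, 54 of the 448 tRNA entries and of the 18488 non-coding RNA entries measured. Of these, 32 were Gly and 22 were Glu entries. The study used the PS19 tauopathy mouse to look for RNAs that differ in abundance with tau pathology. Groups were 8 heterozygous PS19 mice, which carry human mutant tau (MAPT P301S) under the mouse prion promoter (Prnp), and 8 wild-type (WT) littermates on the same mixed C57BL/6 and C3H background, with no drug treatment in either group. Per the study's methods both groups were in the tenth month of life, held equal numbers of males and females, and were perfused before the cortex was taken. The transgene is driven by a promoter that acts in many cell types, so that the model is not restricted to neurons. The labels name each mouse by genotype and a replicate number and give no sex, so sexes could not be compared here.

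A tRNA reads a codon through the 3 bases of its anticodon and brings the matching amino acid to the ribosome. Mammals hold several gene copies for most anticodons, and copies with the same mature sequence are told apart only by position. When cells are stressed, ribonucleases such as angiogenin cut tRNAs in the anticodon loop into 5′ and 3′ fragments, and 5′ fragments of Gly-GCC and Glu-CTC tRNAs are among the most abundant tRNA fragments in small RNA libraries. The values used here give 1 total per tRNA entry, so whole tRNAs and fragments could not be told apart.

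The site of that cut is shown on the single Gly gene whose sequence could be read here. It is a Gly-CCC gene at chr17:25875088-25875158 (GRCm38, plus strand). Its anticodon arm, at chr17:25875113-25875129, is printed 5′ to 3′ with the anticodon in capitals.

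Gly-CCC anticodon arm (RefSeq gene n-TGccc7): caagattCCCattcttg

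The 5 bases at each end pair to form the stem, and the 7 bases between them form the loop that holds the anticodon at bases 33 to 35 of a 71-base tRNA. This gene lies inside an exon of Mettl26, where it overlaps an annotated untranslated region, and it also overlaps the long non-coding RNA Gm26694. RefSeq names 48 Gly and Glu tRNA genes on this build, of 71 to 74 bases. They comprise 14 Gly-GCC, 6 Gly-CCC, 7 Gly-TCC, 1 Gly-ACC, 12 Glu-CTC and 8 Glu-TTC genes. By position 32 of them were intergenic, 14 lay in introns and 2 overlapped exons. The densest group spans 65.1 kb of chromosome 1 (171037997 to 171103114), where 5 Gly-TCC, 4 Gly-GCC and 4 Glu-CTC genes are interspersed (13 in all). RefSeq names and the names of the measured entries use different numbering, so entries were matched to genes by anticodon only.

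In the measured entries, as in Gly-GCC-2-3, the letters give the anticodon, the next number the mature sequence (isodecoder) and the last number the gene copy. Entries fell into 15 Gly-GCC, 7 Gly-CCC, 8 Gly-TCC, 2 Gly-ACC, 14 Glu-CTC and 8 Glu-TTC. Many copies held the same reads. Counting entries with identical values once left 45, and counting entries that differed by less than 1% in every library once left 24. The 10 entries of isodecoders Gly-GCC-2, Gly-GCC-3 and Gly-GCC-4 collapsed into 1, as did the 9 copies of Glu-CTC-1 and the 7 copies of Gly-TCC-1. Each merged group is named here by its entry of highest mean, and these 24 are called separate entries. Some of them are still copies of the same isodecoder, such as Gly-CCC-2-1 and Gly-CCC-2-2.

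Depth was 13.2 M to 23.1 M recovered reads, averaging 16.9 M for PS19 (SD 2.72) and 18.3 M for WT (SD 3.39, n = 8 each). Library codes began with G in all PS19 libraries and in WT replicates 2 and 4, with F in 4 WT libraries and with A in 2. The labels do not explain this letter. As a check for a library deposited more than once, all 120 pairs of libraries differed by more than counting error (chi-square per degree of freedom of 30.7 or more). This check does not tell separate mice from separate preparations of 1 mouse. All 18 cell type marker miRNAs were detected. Summed neuronal miRNAs, such as miR-124-3p and miR-9-5p, lay between 294666 and 1026090 normalized counts in PS19 and between 341505 and 953083 in WT. The 4 miRNAs of microglia and leukocytes together reached 52.7 to 208.2 in PS19 and 31.7 to 87.1 in WT, the 2 of oligodendrocytes 18522 to 52332 and 13365 to 46513. Those of red blood cells reached 731 to 1518 and 652 to 1411, and the liver marker miR-122-5p 138 to 654 and 132 to 387. No marker was at 0 in every library. The ranges of the genotypes overlapped for every list, but the medians were not all alike. PS19 and WT medians were 36705 and 23934 for oligodendrocytes, 72.0 and 50.7 for microglia and leukocytes, and 735098 and 719197 for neurons. For red blood cells, endothelium, muscle and liver the PS19 median was the lower. The part of cell composition in the tRNA values was not tested. In bulk tissue, fewer cells of a type and less RNA per cell cannot be told apart.

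Very few isodecoders held most of the Gly and Glu tRNA signal. Values are normalized counts, that is reads divided by the size factor of the library, and the tRNA genes are so close in length that dividing by it would change a level by a few percent at most. Gly-GCC-2-3, Glu-CTC-1-8 and Gly-CCC-5-1 averaged 307577, 303311 and 274081 over the 16 libraries and were the most abundant of all tRNAs. Next came Gly-GCC-1-1 at 40391. The following Gly or Glu entries were Gly-GCC-5-1 at 8273, Glu-TTC-1-3 at 5896 and Glu-TTC-1-4 at 4482. Below these came Glu-CTC-2-1 at 3517, Gly-GCC-6-1 at 3322, Glu-TTC-3-1 at 2779, Glu-TTC-2-1 at 2243, Glu-CTC-3-1 at 1869 and Gly-CCC-1-1 at 1312.

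The 10 remaining tested entries had means under 1000. Gly-CCC-2-2 and Gly-CCC-2-1 averaged 953 and 937, Gly-ACC-1-1 averaged 842, and Gly-CCC-3-1 and Gly-CCC-4-1 averaged 593 and 551. Both Gly-TCC isodecoders were low, at 488 for Gly-TCC-1-2 and 413 for Gly-TCC-2-1, although RefSeq lists 7 genes with this anticodon. Glu-CTC-4-1 and Glu-CTC-5-1 each averaged 394. Glu-CTC-6-1 was the lowest tested entry, at 31.5, so that the tested means spanned 9761-fold. Gly-ACC-2-1 held 6 reads in all, in 3 PS19 libraries and 1 WT library and never more than 2 in a library, and was the only member that did not reach the minimum mean of 5 used for testing.

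**Figure D1:**
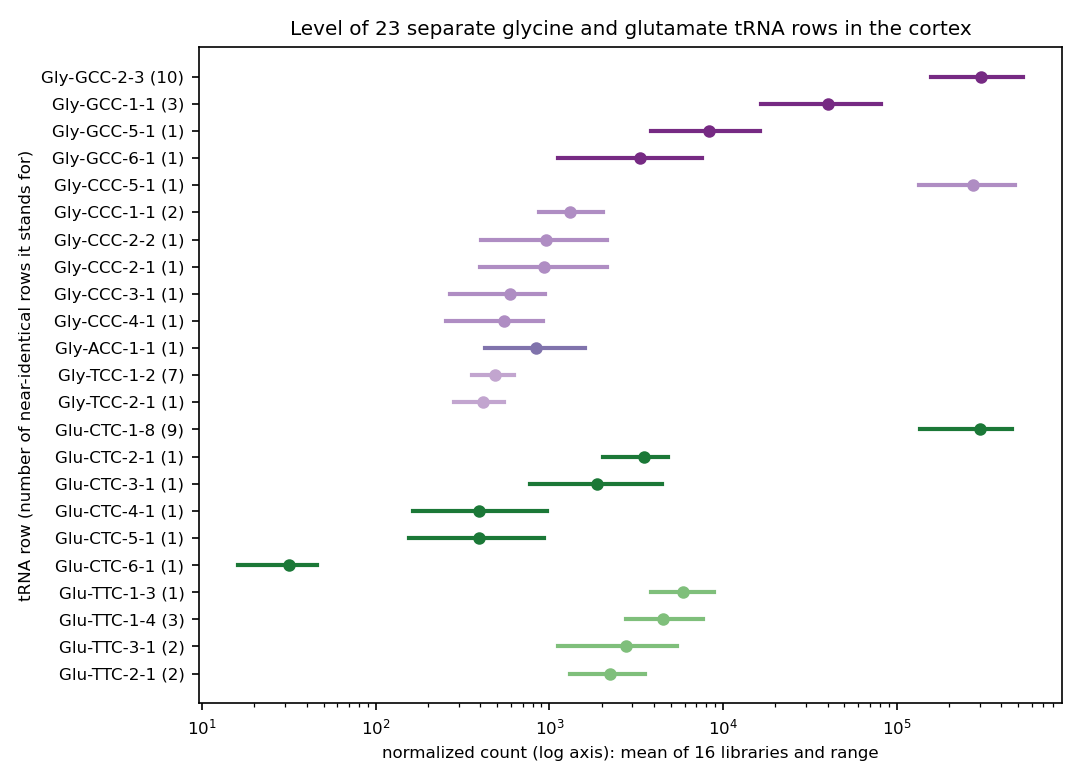
Normalized count (log axis) of the 23 tested separate Gly and Glu tRNA entries; points are means over 16 libraries, bars run from the lowest to the highest library, and the number in brackets is how many near-identical entries each stands for. Gly-GCC-2-3, Glu-CTC-1-8 and Gly-CCC-5-1 lie at 274081 to 307577, far right of the remaining entries of their anticodons.

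Among all tRNA entries, with near-identical entries counted once, Gly and Glu together held 88.5% ± 1.29 of the tRNA signal in PS19 and 89.2% ± 2.17 in WT (SD, n = 8 each). In contrast, the split between the amino acids was broad. Gly held between 42.2% and 65.1% in PS19 libraries and between 52.5% and 69.7% in WT libraries, and Glu between 22.4% and 45.5% and between 16.8% and 40.1%. The combined share thus varied by 3.38 percentage points between PS19 mice and 6.47 between WT mice, while each amino acid varied by 17.2 to 23.3 points. For scale, Lys tRNAs held 2.99%, His tRNAs 1.08%, Asp tRNAs 0.776% and Val tRNAs 0.541% on average. How reads that match both Gly-GCC-2-3 and Gly-CCC-5-1 were counted is not known, and the shares may hold such reads under both. With Gly-CCC-5-1 left out of part and total, Gly and Glu together held 84.8% ± 1.71 in PS19 and 85.5% ± 3.05 in WT, and Gly 43.1% ± 8.84 and 45.9% ± 7.34 (SD, n = 8 each). These shares carry no test, since a share of each group falls when another rises.

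To determine whether any Gly or Glu tRNA differed with genotype, limma was fitted to log2(value + 1) of all 6024 entries with a mean of at least 5, and 53 of the 54 members entered it. None of the 53 had an unadjusted p under 0.05, the threshold of the study, against 241 of all 6024 tested entries (4.0%). Many of the 53 hold the same reads, and counted as separate entries it was 0 of 23. That is too few entries for a count of 0 to lie apart from the share over all entries. No entry of the whole table passed an adjusted p under 0.05 in limma (Benjamini-Hochberg, smallest 0.409), nor in the quasi-likelihood test of edgeR on recovered reads, and DESeq2 called 15 (0.249%), none of them a Gly or Glu tRNA. At an unadjusted p under 0.05 edgeR called 265 entries (4.40%) and DESeq2 283 (4.70%), again with 0 members. All 53 members had an adjusted p of 0.9998 in limma. Values in PS19 and WT overlapped for every tested member, but so they did for nearly all of the table: the groups were apart for 6 of the 6024 tested entries (0.0996%), so the overlap does not set the members apart.

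Among the 23 tested separate entries, 13 were higher and 10 lower in PS19. Single mice decided such tallies: of the 44 distinct tested entries 26 were higher and 18 lower, which became 38 and 6 without WT replicate 2 and 17 and 27 without WT replicate 4. The median log2 difference of the separate entries was 0.09, against -0.02 over all tested entries. The 10 Glu entries had a median of 0.14, with 7 higher, and the 13 Gly entries a median of -0.0090, with 6 higher. Differences ran from -0.27 to 0.31. Standard errors were 0.18 to 0.36, and the widest bounds of the 95% intervals were -1.03 and 0.86. A change of 2-fold, 1 on the log2 scale, was thus outside the interval of all but Glu-CTC-3-1. How small a change each interval leaves out differed by entry, and the narrowest was that of Gly-TCC-1-2.

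**Figure D2:**
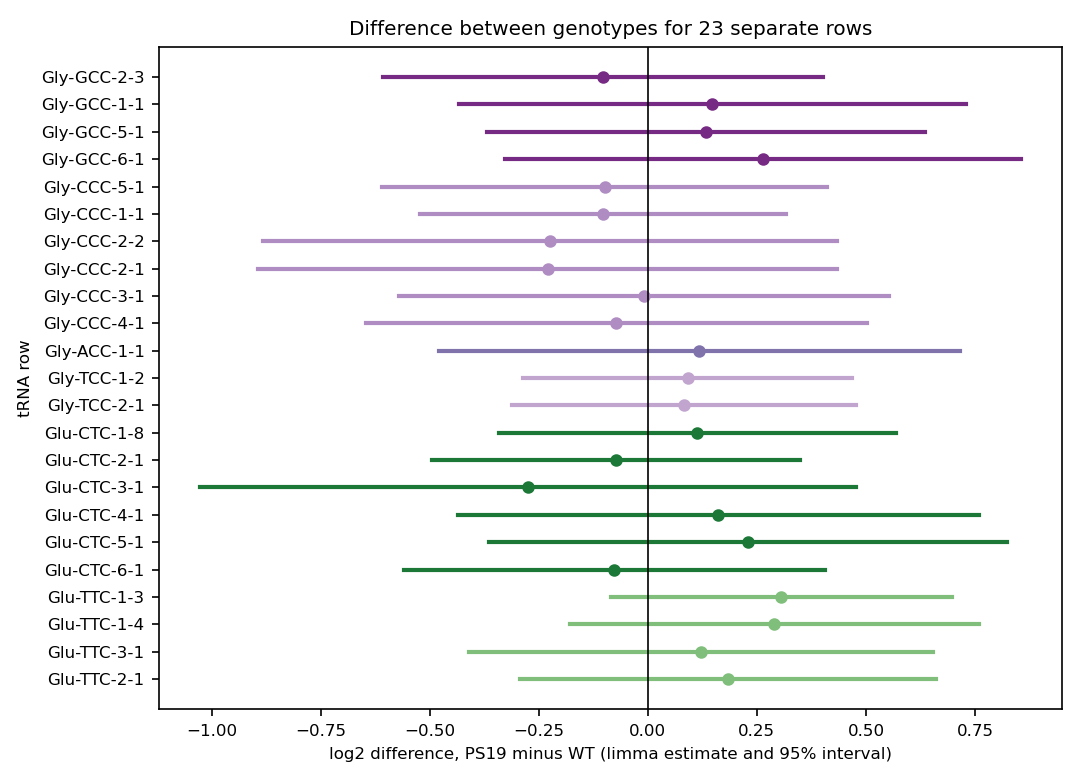
Log2 difference between PS19 and WT (positive, higher in PS19) for the 23 tested separate entries, with limma estimates as points and 95% intervals as bars. Every interval includes 0; Glu-TTC-1-3 at 0.31 comes nearest to leaving it.

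Gly-GCC tRNAs read the GGC and GGU codons and were the most abundant Gly group. Gly-GCC-2-3 had a lowest, median and highest normalized count of 178903, 297395 and 447390 in PS19 and of 157646, 303095 and 532267 in WT. The highest library was WT replicate 2 and the lowest WT replicate 8, so that WT enclosed the whole PS19 range. Means were 292920 ± 93328 in PS19 and 322234 ± 128266 in WT (SD, n = 8 each). In limma the log2 difference was -0.10 ± 0.24 (SE, 95% interval -0.61 to 0.40, exact permutation p = 0.697). Without WT replicate 2 it was 0.015, so its sign rested on that mouse. Gly-GCC-4-1, the next most abundant entry that was not identical, stayed between 99.99% and 100.001% of Gly-GCC-2-3 in every library and adds no separate measurement.

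The minor Gly-GCC isodecoders followed the major one at lower levels. Gly-GCC-1-1 lay at 24317 to 64927 across PS19 (median 40729) against 16626 to 80817 across WT (median 31788), a log2 difference of 0.15 (SE 0.28). It made up 10.4% to 15.5% of the Gly-GCC-2-3 level. Gly-GCC-6-1 had the highest log2 difference of any Gly tRNA, 0.26 (SE 0.28, 95% interval -0.33 to 0.86, exact permutation p = 0.415). Its lowest, median and highest values were 2367, 3353 and 5346 in PS19 and 1123, 2819 and 7597 in WT. Without WT replicate 2 the difference was 0.47 and without WT replicate 8 it was 0.077. Both the highest and the lowest of the 16 values were in these libraries, and 6 of 8 PS19 libraries exceeded the WT median. Gly-GCC-5-1 kept close to Gly-GCC-6-1 (Pearson r = 0.97 over 16 libraries on the log2 scale), with 6153 to 12196 in PS19 and 3848 to 16347 in WT.

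Glu-CTC tRNAs read the GAG codon. Glu-CTC-1-8 had a lowest, median and highest normalized count of 241992, 293061 and 407805 in PS19 and of 135646, 290664 and 464470 in WT. PS19 values again lay inside the WT range, which ran from WT replicate 4 to WT replicate 7. Means were 308480 ± 65056 in PS19 and 298143 ± 104891 in WT (SD, n = 8 each), a log2 difference of 0.11 ± 0.22 (SE, 95% interval -0.34 to 0.57, exact permutation p = 0.633). Without WT replicate 4 it was -0.036. Glu-CTC-1-6, the distinct entry next in level, gave the same difference and is a copy of the same mature tRNA.

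Other Glu-CTC isodecoders were 86.2 or more times lower than Glu-CTC-1-8 on average, with an r of 0.10 to 0.55 to it over the 16 libraries. Glu-CTC-3-1 had the lowest log2 difference of any Gly or Glu tRNA, -0.27 (SE 0.36, 95% interval -1.03 to 0.48, exact permutation p = 0.510). Its lowest, median and highest values were 828, 1553 and 2772 in PS19 and 777, 1426 and 4447 in WT. WT replicates 1, 2 and 3, at 3440, 3961 and 4447, stood above every PS19 library, while the PS19 median was above that of WT. Its difference was -0.08 without WT replicate 3 and -0.44 without WT replicate 8. Glu-CTC-4-1 and Glu-CTC-5-1 were led by PS19 replicate 5, at 973 and 935, against 603 or less for Glu-CTC-4-1 elsewhere. Their log2 differences were 0.16 and 0.23 (SE 0.29 each). Glu-CTC-2-1 was lower in PS19 by a log2 difference of -0.07 and Glu-CTC-6-1 by -0.08, with standard errors of 0.20 and 0.23.

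Glu-TTC tRNAs read the GAA codon and held the largest differences of the Glu group. Glu-TTC-1-3 had a lowest, median and highest value of 4540, 6620 and 8898 in PS19 and of 3821, 4967 and 7466 in WT. The genotypes overlapped over most of that range, although 6 of the 8 PS19 mice exceeded the median of WT. Its means of 6525 ± 1466 and 5267 ± 1178 (SD, n = 8 each) gave a log2 difference of 0.31 ± 0.19 (SE, 95% interval -0.09 to 0.70), the highest of any Gly or Glu tRNA. Its unadjusted p was the smallest of all members in limma (0.119), DESeq2 (0.0861) and edgeR (0.0882), and its exact permutation p = 0.0782.

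Glu-TTC-1-4, which stands for 3 near-identical copies of this isodecoder, lay at 2743 to 7638 across PS19 (median 5018) against 2778 to 5315 across WT (median 3987). PS19 thus held both the lowest and the highest library. The log2 difference was 0.29 ± 0.23 (SE, 95% interval -0.18 to 0.76, exact permutation p = 0.206). Without PS19 replicate 3 it was 0.19, and without PS19 replicate 8 it was 0.40. Glu-TTC-2-1 followed at 0.18 (SE 0.23) and Glu-TTC-3-1 at 0.12 (SE 0.26), so all 4 separate Glu-TTC entries had a positive difference, none past the threshold. These are not 4 independent measurements. Glu-TTC-1-3 and Glu-TTC-1-4 are copies of the same isodecoder, and Glu-TTC-2-1 followed Glu-TTC-1-4 over the libraries (r = 0.97).

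Gly-CCC tRNAs read the GGG codon. Gly-CCC-5-1 had a lowest, median and highest value of 158034, 258201 and 391752 in PS19 and of 135305, 271680 and 478421 in WT. Its log2 difference was -0.10 ± 0.25 (SE, 95% interval -0.61 to 0.41, exact permutation p = 0.713). It turned to 0.0030 without WT replicate 1, 0.021 without WT replicate 2 and 0.0055 with array weights. As for Gly-GCC-2-3, the WT range enclosed that of PS19 and ran from WT replicate 8 to WT replicate 2. Gly-CCC-1-1 was 208.9 times lower on average, with 866, 1218 and 1751 in PS19 and 941, 1212 and 2033 in WT (log2 difference -0.10, SE 0.20, exact permutation p = 0.564). That difference was -0.015 without WT replicate 1 and -0.18 without PS19 replicate 1. Gly-CCC-2-1 had the lowest log2 difference of the Gly tRNAs, -0.23 (SE 0.32, 95% interval -0.89 to 0.43, exact permutation p = 0.518). It lay at 396 to 1488 across PS19 (median 749) against 453 to 2132 across WT (median 907), the highest in WT replicate 1 and the lowest in PS19 replicate 6. Without WT replicate 1 the difference was -0.055, and without WT replicate 8 it was -0.37.

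Gly-TCC tRNAs read the GGA codon and varied least of all members. Gly-TCC-1-2 had a lowest, median and highest value of 380, 502 and 608 in PS19 and of 358, 460 and 628 in WT, a 1.75-fold range over the 16 libraries. The log2 difference was 0.09 ± 0.18 (SE, 95% interval -0.29 to 0.47, exact permutation p = 0.475), with 4 of 8 PS19 libraries above the WT median. It was 0.038 without WT replicate 8 and 0.15 without WT replicate 7. Gly-TCC-1-6, its nearest copy, lay at 377 to 609 across PS19 and 358 to 627 across WT. Gly-ACC-1-1 lay at 459 to 1605 across PS19 (median 789) against 424 to 1222 across WT (median 841), a log2 difference of 0.12 (SE 0.29, 95% interval -0.48 to 0.71, exact permutation p = 0.699). It turned to -0.023 without PS19 replicate 1 and -0.0047 without PS19 replicate 2. Only PS19 replicates 1 and 2, at 1605 and 1471, exceeded the WT range.

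**Figure D3:**
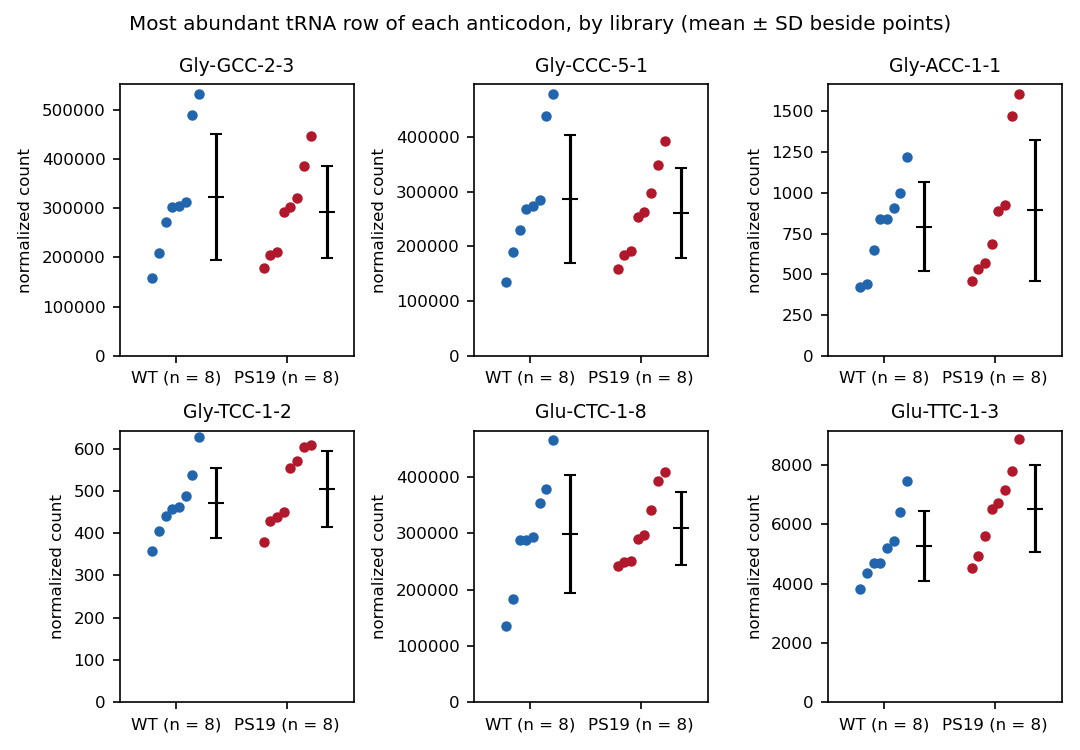
Normalized count in each library for the most abundant entry of each anticodon, with WT in blue and PS19 in red (8 mice each) and mean ± SD in black beside the points. WT and PS19 overlap in all 6 panels; axes start at 0.

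Summed over the distinct entries of an anticodon, the log2 ratio of the PS19 mean to the WT mean was -0.13 for Gly-GCC, -0.14 for Gly-CCC, 0.092 for Gly-TCC, 0.17 for Gly-ACC, 0.049 for Glu-CTC and 0.24 for Glu-TTC. Leaving out 1 library changed the sign for 4 of the 6, to 0.0088 for Gly-GCC and 0.0029 for Gly-CCC without WT replicate 2 and to -0.0012 for Gly-ACC without PS19 replicate 1. Glu-CTC turned to -0.060 without WT replicate 4, -0.029 without WT replicate 8, -0.019 without PS19 replicate 5 and -0.0078 without PS19 replicate 6. These sums count a read once under each entry that holds it. With near-identical entries counted once, Gly-GCC reached 346136 ± 109492 in PS19 and 372990 ± 152714 in WT, and Glu-TTC 16679 ± 3677 and 14120 ± 3304 (SD, n = 8 each). For each anticodon the difference of the means was smaller than the SD of either genotype, and the sums were given no test.

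The letter of the library code went with genotype, since every F and A library was WT. Among libraries coded G, Gly-GCC-2-3 averaged 292920 in 8 PS19 and 417085 in 2 WT libraries, and Glu-CTC-1-8 308480 and 244604. These 2 WT libraries differed from each other, at 301903 and 532267 for Gly-GCC-2-3 and at 135646 and 353563 for Glu-CTC-1-8. With the letter as a further term in limma, the log2 difference of Gly-GCC-2-3 was -0.52, that of Gly-CCC-5-1 -0.52 and that of Glu-CTC-1-8 0.47. Glu-TTC-1-3 came to 0.26 and Glu-CTC-3-1 to -0.66. Glu-CTC-5-1 had the smallest p of any member in that fit (0.0971 before adjustment), at a log2 difference of 0.76. Gly-GCC-6-1 and Gly-ACC-1-1 changed sign, to -0.26 and -0.11. No Gly or Glu tRNA passed an unadjusted p under 0.05 in that fit, which rests on 2 WT libraries for the comparison within a letter.

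Variation between mice was wide. Across the 23 separate entries, the highest of the 16 libraries exceeded the lowest by 1.75 to 6.76 times (median 3.54), and the coefficient of variation was 17.4% to 62.2%. WT replicate 8 had the lowest value for 10 of the entries and WT replicate 4 for 6, while WT replicate 2 had the highest for 7 and WT replicate 1 for 5. WT replicate 2 was deeper than WT replicate 8, at 20.6 M and 15.5 M recovered reads. However, the deepest library, WT replicate 3 at 23.1 M, was highest for only 1 entry. The shallowest, WT replicate 6 at 13.2 M, was lowest for only 1.

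The ratio of Gly-GCC-2-3 to Glu-CTC-1-8 showed which tRNA led in each mouse. It was 1.05, 1.31, 1.55, 1.21, 0.501, 0.457, 1.28 and 0.710 in PS19 replicates 1 to 8. In WT replicates 1 to 8 it was 1.29, 1.51, 1.08, 2.23, 0.942, 0.715, 0.655 and 0.859. Gly-GCC led in 5 PS19 and 4 WT mice, and the ratio was lowest in PS19 replicate 6 and highest in WT replicate 4. Medians of 1.13 in PS19 and 1.01 in WT lay close together beside this spread.

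Across the 16 libraries the levels of Gly-GCC-2-3 and Glu-CTC-1-8 showed no detectable relation on the log2 scale (Pearson r = 0.16, permutation p = 0.555, adjusted p = 0.832; Spearman rho = 0.08, permutation p = 0.774, adjusted p = 0.978). Adjustment was over 3 relations. Leaving out WT replicates 2 and 8, farthest from the median Gly-GCC level, gave r = -0.12 (permutation p = 0.694). Within PS19 the coefficient was -0.54 (n = 8, exact permutation p = 0.167) and within WT 0.48 (n = 8, exact permutation p = 0.224). The difference between these coefficients was not tested.

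Gly-GCC-2-3 was also set against miR-451a, a red blood cell miRNA, and against recovered reads. For miR-451a r was -0.05 (rho = -0.0088, permutation p = 0.851 and 0.978, adjusted p = 0.851 and 0.978), and without WT replicates 2 and 8 it was 0.56 (permutation p = 0.0398). Within genotypes it ran in opposite directions, at 0.82 in PS19 (n = 8, exact permutation p = 0.0142) and -0.55 in WT (n = 8, exact permutation p = 0.153), values that were not adjusted. miR-451a itself was low beside the tRNAs compared with it, at 1.90 to 40.1 normalized counts per library. For recovered reads r was 0.43 (rho = 0.46, permutation p = 0.0934 and 0.0778, adjusted p = 0.280 and 0.233). Without the same libraries it was 0.33 (permutation p = 0.252), and within PS19 and WT it was 0.16 and 0.59 (n = 8 each, exact permutation p = 0.730 and 0.123).

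**Figure D4:**
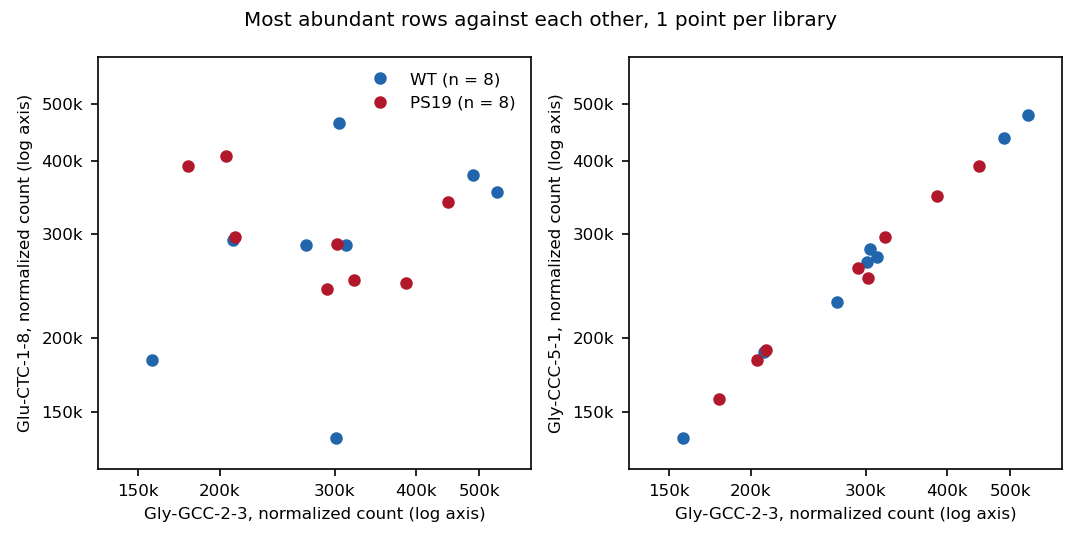
Glu-CTC-1-8 (left) and Gly-CCC-5-1 (right) against Gly-GCC-2-3, in normalized counts on log axes, 1 point per library with WT in blue and PS19 in red. Left, the points scatter without a line (r = 0.16); right, they follow a line (r = 0.997, Gly-CCC-5-1 at 83.7% to 93.3% of Gly-GCC-2-3).

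Entries of one anticodon varied together more closely on the whole than entries of unlike anticodons, with exceptions. Correlations are given on the log2 scale over the 16 libraries as a description, since entries share libraries, scaling and in part reads. Gly-CCC-5-1 followed Gly-GCC-2-3 across anticodons (r = 0.997), and stood at 83.7% to 93.3% of it in every library (median 89.7%). In each of the 16 libraries Gly-GCC-2-3 held more reads than Gly-CCC-5-1, by 19750 to 56628. Glu-TTC-3-1 followed Glu-CTC-1-8 (r = 0.95) at 0.766% to 1.17% of the level of this group, whereas its r with Glu-TTC-1-4 was 0.15. How reads that match several tRNAs were assigned is not given in the sources used here, and whether these pairs share reads was not tested.

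Glu-CTC-3-1 had an r of 0.56 to 0.83 to the Gly-GCC and Gly-CCC entries and of -0.05 and 0.02 to the Gly-TCC entries. Its r to the entries of its own anticodon ran from -0.10 to 0.49, and to those of Glu-TTC from 0.19 to 0.74. Glu-CTC-4-1 and Glu-CTC-5-1 formed a pair (r = 0.99) with an r of -0.08 and -0.03 to Gly-GCC-2-3. Gly-TCC-1-2 and Gly-TCC-2-1 also formed a pair (r = 0.99), and their r was 0.63 and 0.66 to Glu-CTC-1-8 but 0.14 and 0.21 to Gly-GCC-2-3. Across all 253 pairs of separate entries, the lowest r was -0.13 and the median 0.46. The median was 0.72 over 43 pairs of one anticodon, 0.43 over 80 pairs of one amino acid with unlike anticodons and 0.39 over 130 pairs of a Gly with a Glu tRNA.

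**Figure D5:**
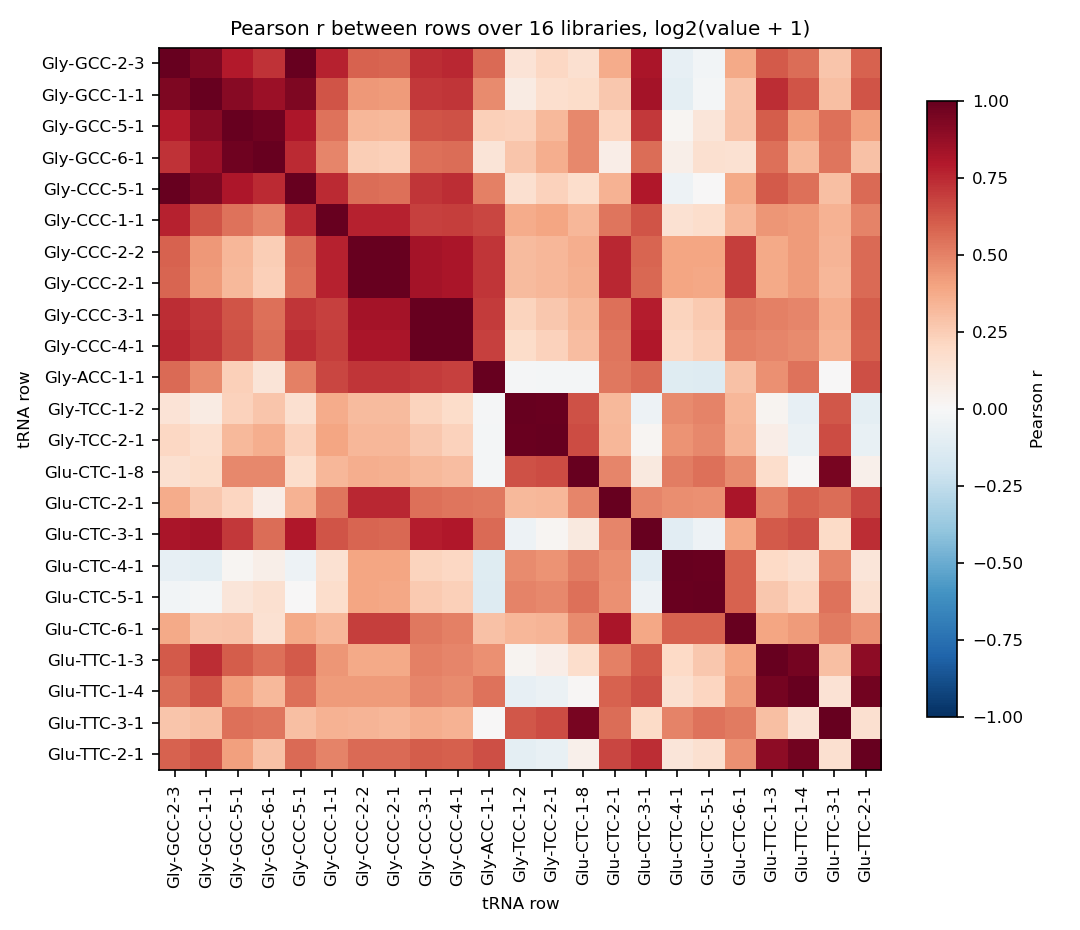
Pearson r on log2(value + 1) over 16 libraries between the 23 separate entries, ordered by anticodon and level, from blue (-1) through white (0) to red (1). The 45 pairs among Gly-GCC and Gly-CCC entries are mostly red (median r = 0.72) with paler cells down to 0.24, and Glu-TTC-3-1 matches Glu-CTC-1-8 (0.95).

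Outside Gly and Glu, the entries most like Gly-GCC-2-3 over the 16 libraries were Lys-CTT-2-1 (r = 0.91, mean 15887) and Lys-CTT-3-7 (r = 0.85, mean 11919), which decode a lysine codon. Those most like Glu-CTC-1-8 were circRNAs with means of 6.26 and 6.99 at r = 0.74 and 0.73. Snord35a (0.724) and Arg-CCG-3-1 (0.718) came close to them. All of these are the highest coefficients picked over all tested entries outside Gly and Glu. Values of this size can arise in such a search without a relation, and none was tested.

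Elsewhere among the tRNAs, with identical entries counted once, 13 of 305 tested entries were higher and 1 lower in PS19 at an unadjusted p under 0.05 in limma (4.59%, against 3.93% of all 5725 distinct tested entries). His tRNAs held 3 of these, from 5 tested, and Leu tRNAs 9, from 23. Near-identical entries were not merged in these counts, so they may hold the same reads more than once. Merging such entries leaves 3 His tRNAs. Lys, Val, His and Asp tRNAs, whose 5′ fragments are also known to be abundant, held 3 higher and 1 lower of 68, and their median log2 difference was 0.072. For the 44 distinct tested Gly and Glu entries the counts were 0 and 0 and the median 0.092. Whether the Gly and Glu tRNAs differed from these groups was not tested.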

How the data were processed

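Small RNA from frozen prefrontal cortex of 16 mice was converted to libraries with the NEBNext small RNA kit and sequenced by the authors. Per the study's methods, reads were aligned with STAR 2.5.3a within COMPSRA, which counts reads per tRNA and other annotations, and the submitters' processing notes name mm10 and DESeq2 1.42.1. The deposited table holds a normalized signal, namely counts that the authors divided by 1 size factor per library. Dividing by the value of 1 read gave whole reads for 100% of values (tolerance 0.01). In WT replicates 4 and 6 that value was near 1, so recovery rests on weaker evidence there. Columns with the authors' own fold changes, statistics, p-values and means were not used, and 0 library columns were left out.

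Entries with a mean of at least 5 over 16 libraries were fitted as log2(value + 1) with limma 3.58.1 (lmFit, eBayes with trend, R 4.3.3), genotype as the only term, two-sided p and Benjamini-Hochberg adjustment over all 6024 entries. Fold changes on this scale understate those of low entries. Correlations used 100000 permutations, or all orders for 8 libraries, two-sided (numpy 2.4.6, Python 3.11.15). The fit was also run on simulated counts with known changes, as a check of the code and not of the results. Named entries were, per anticodon, the 2 distinct entries of highest mean, any with an unadjusted p under 0.05, and the highest and lowest difference within each amino acid. Further entries were named after their values were seen. Members and lists were chosen with earlier results of these data known. Alternatives were other filters (no minimum, or a mean of at least 20), 2 other scalings, pseudocounts of 0.5 and 5, array weights, the library code letter, a replicate block, identical entries once, leaving out each library, and DESeq2 1.42.0 and edgeR 4.0.16 on recovered reads. Merging near-identical entries, the two-sided exact permutation test of single entries (12870 assignments, on log2(value + 1)) and the tRNA share without Gly-CCC-5-1 were chosen after seeing the data. Intervals from limma are for the difference between the group means, with a standard error that rests on the spread between mice. They do not give the range of single mice. tRNA base modifications, which can stop reverse transcription, may lower counts. Positions came from RefSeq and GENCODE M21 (GRCm38). tRNA sequences other than the arm shown were not used here.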

Additional observations from a re-analysis of the deposited data

Results flagged for a closer look

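Sets of 8 values, 50 in all, were examined for a single library far from the others. They were the 23 separate entries, the Gly-GCC to Glu-CTC ratio and recovered reads, in each genotype. Of these sets, 3 stood out. The limit used is passed by about 1 in 20 sets of normal values, which gives about 2.5 for independent sets. Gaps were taken on unlogged values and many entries vary together, so that number is only a rough guide. Gly-GCC-5-1 in WT stood out through WT replicate 2, at 16347 normalized counts against 9726 in the next library. Gly-GCC-6-1 in WT stood out through the same mouse, at 7597 against 3467. These entries vary together, so they are not separate events. Recovered reads in PS19 were highest in PS19 replicate 7, at 22579800 against 17961500. Without WT replicate 2, the log2 difference of Gly-GCC-6-1 was 0.47, against 0.26 with it and 0.077 without WT replicate 8, and none of these passed an unadjusted p under 0.05 in limma.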

How the results depend on the processing

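No Gly or Glu tRNA passed an unadjusted or adjusted p under 0.05 under any of the 28 alternative fits, 16 of which left out a library. The smallest unadjusted p under any of them was 0.0559, for Glu-TTC-1-3 in limma without WT replicate 2, and that entry kept a positive difference in all of them (0.24 to 0.38 without single libraries, 0.33 when scaled to the library total). Array weights turned Gly-CCC-5-1 to 0.0055, and the letter of the library code turned Gly-ACC-1-1 to -0.11 and Gly-GCC-6-1 to -0.26. Without single libraries, the log2 difference ran from -0.036 to 0.22 for Glu-CTC-1-6 and for Glu-CTC-1-8, from -0.023 to 0.24 for Gly-ACC-1-1, from -0.24 to 0.021 for Gly-CCC-5-1 and from -0.24 to 0.015 for Gly-GCC-2-3 and for Gly-GCC-4-1. It ran from 0.077 to 0.47 for Gly-GCC-6-1, from -0.44 to -0.083 for Glu-CTC-3-1 and from -0.37 to -0.055 for Gly-CCC-2-1. Glu-CTC-3-1 was at -0.48 in DESeq2 and at -0.66 with the code letter. The log2 ratio of the summed levels ran from -0.25 to 0.0088 for Gly-GCC, -0.25 to 0.0029 for Gly-CCC, 0.041 to 0.16 for Gly-TCC, -0.0012 to 0.29 for Gly-ACC, -0.060 to 0.17 for Glu-CTC and 0.16 to 0.31 for Glu-TTC. The r of Gly-GCC-2-3 with Glu-CTC-1-8 changed sign within PS19 (-0.54) and when scaled to the library total (-0.038). The causes were not tested. Replicate numbers were not taken as pairs, since the labels do not say what a number shares. The correlation of same-numbered libraries was 0.045 to 0.46, over 0.1 in 6 of 8 pairs, and 2 of 8 were closest to their own number, so a partial pairing is possible. With the replicate block, 0 members and 419 of 6024 entries had an unadjusted p under 0.05, against 241 without it. Array weights gave 418, scaling to the tRNA total 140 and the code letter 124. The limits are 8 mice a group, near-identical tRNAs that share counts, and values that give no read position.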
